A study of Homo sapiens with 11 samples.

Results

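Transcripts that begin in, or run through, copies of the endogenous retrovirus HERVH were followed across 11 RNA sequencing libraries of human embryonic stem cells. The 5 genes ESRG, ABHD12B, HHLA1, C4orf51 and SCGB3A2 were chosen by name for this feature, out of 23287 genes with values in both deposited RPKM tables (reads scaled to transcript length and library size). In 9 libraries cells carried a lentiviral short hairpin RNA (shRNA) and were collected on day 5: a control shRNA, one named uCCNE1, or one aimed at pCCNE1, a form of the cyclin E1 gene CCNE1 made by alternative splicing in primates alone. Each shRNA was used in 3 cultures, namely primed H1 cells, H7 cells in the naive medium 5iLA and H1 cells in the naive medium t2iGo. The other 2 libraries were untreated H7 cells, primed and in 5iLA. H1 and H7 are established embryonic stem cell lines. Every group is 1 library, so the shRNAs stood in for replicates of a culture and the cultures for replicates of an shRNA, and p-values reflect spread among single libraries that may be technical. The line changes together with the medium between 5iLA H7 and either H1 culture, so line and medium cannot be told apart in those comparisons.

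HERVH is a family of proviruses left by ancient germline infections, each flanked by long terminal repeats of the LTR7 group. In human pluripotent cells these repeats act as promoters, are bound by pluripotency factors such as OCT4, NANOG and KLF4, and give rise to non-coding RNAs and to chimeric transcripts of neighbouring genes. ESRG is a long non-coding RNA transcribed from such a provirus and is a known marker of pluripotent stem cells. ABHD12B encodes a predicted serine hydrolase, HHLA1 is named for its association with a HERVH repeat, and C4orf51 encodes a protein of unknown function; high levels of these last 3 genes have marked stem cell clones that differentiate poorly. SCGB3A2 encodes a secretoglobin that is normally secreted in the airways.

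In the GENCODE release 29 annotation of build GRCh38, ABHD12B has 9 transcripts, SCGB3A2 has 4, and HHLA1 and C4orf51 have 3 each. Of the SCGB3A2 transcripts, 3 start 6.69, 7.21 and 8.03 kb upstream of the RefSeq start of the gene. The tables give a single RPKM per gene, under a single RefSeq identifier, and which transcripts it counts is not given in the sources used here. The levels below thus do not separate repeat-initiated forms from the others, and such forms may be counted in part or not at all.

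The windows upstream of the RefSeq starts are shown for the 3 members that the promoter table holds, because their levels rose together in 5iLA H7. HHLA1 rose as well but is not held there. Whether these starts were the ones in use, or whether the windows hold a HERVH repeat, was not tested. They are from RefSeq, build GRCh38.p14, plus strand: ABHD12B at chr14:50871803-50872052, C4orf51 at chr4:145679896-145680114 and SCGB3A2 at chr5:147878461-147878710. Capitals mark matches to motifs searched on both strands, which do not overlap one another here. The octamer bound by OCT4 was searched as ATGCAAAT. The core of a TATA box was searched as TATAAA. For KLF factors the core searched was CACCC, and for SOX factors the core searched was ACAAAG.
ABHD12B: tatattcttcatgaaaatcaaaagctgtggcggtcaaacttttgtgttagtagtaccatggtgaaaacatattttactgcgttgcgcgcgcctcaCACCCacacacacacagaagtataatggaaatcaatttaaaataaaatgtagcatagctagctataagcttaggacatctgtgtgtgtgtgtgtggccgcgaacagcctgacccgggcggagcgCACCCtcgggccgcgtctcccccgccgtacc
C4orf51: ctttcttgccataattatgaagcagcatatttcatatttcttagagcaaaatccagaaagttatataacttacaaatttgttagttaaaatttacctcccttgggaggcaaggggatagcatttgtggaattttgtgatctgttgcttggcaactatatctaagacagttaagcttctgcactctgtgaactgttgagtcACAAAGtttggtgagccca
SCGB3A2: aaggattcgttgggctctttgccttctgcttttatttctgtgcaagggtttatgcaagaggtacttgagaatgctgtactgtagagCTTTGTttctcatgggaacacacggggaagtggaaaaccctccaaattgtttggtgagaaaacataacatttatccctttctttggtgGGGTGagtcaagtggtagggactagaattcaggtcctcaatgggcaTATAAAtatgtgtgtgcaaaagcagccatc
The full windows ended at base -1, and the C4orf51 sequence is printed up to 32 bases before the start, since an annotated exon begins after it. The octamer occurred in 0 of these 3 windows and in 1.63% of all 35116 promoter windows of 250 bases. SCGB3A2 held TATAAA at base -30, CACCC on the minus strand at -76 and ACAAAG on the minus strand at -164. ABHD12B held CACCC at -155 and -31, and C4orf51 held ACAAAG at -50. Over all windows TATAAA was found in 10.7%, CACCC in 54.7% and ACAAAG in 13.7%. GC content was 48.4% in ABHD12B, 36.8% in C4orf51 and 43.2% in SCGB3A2, against a median of 58.0% over all windows, and the CG dinucleotide occurred 15, 0 and 2 times against a median of 11.

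Before any comparison, the libraries themselves differed. Depth, estimated from the steps that single reads leave in low values, was highest in primed H1 (18.8 to 23.3 M reads), lower in 5iLA H7 (11.3 to 16.6) and lowest in t2iGo H1 (6.3 to 14.0). The untreated libraries held 13.3 (primed) and 24.8 M reads (5iLA). The share of small RNAs in the RPKM total ran from 0.218% to 0.521% for primed H1 and from 9.86% to 31.6% for the other 8 libraries. The RPKM total itself ran from 341088 to 357685 for primed H1 and from 139202 to 224314 for the remaining 6 shRNA libraries. Members are therefore also given rescaled to an equal sum without small RNAs. All 10 stem cell identity markers were at 1 RPKM or more in every library. Of 13 naive markers, 11 to 13 reached 1 RPKM in 5iLA H7, but 2 did in each t2iGo H1 library, as many as in primed H1. In t2iGo H1, 12 of 13 primed markers were at 1 RPKM or more, so the naive label of t2iGo H1 did not show at this cut-off. Against primed H1, limma called 4 of 11 tested naive markers higher and 1 lower, where 8.77% of all genes were higher and 63% lower. Of 13 primed markers, 1 was called higher and 9 lower. After rescaling, 6 naive markers were called higher and 0 lower, where 38.5% of genes were higher and 30.1% lower. Endoderm markers summed to 68.9 to 158 RPKM in t2iGo H1 and to 0.757 to 6.68 RPKM among the remaining 6 shRNA libraries. CCNE1, the target gene, lay below its control in all 6 CCNE1 shRNA libraries, at 37.3% to 88.2% of control in RPKM. After rescaling it was at 54.8% to 92.5% of control. In 5iLA H7 it went from 37.3% to 54.8% with uCCNE1 shRNA and from 59.3% to 82.0% with pCCNE1 shRNA. The gene-level value does not separate pCCNE1.

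The members split into ESRG, which was highest in primed H1, and the other 4, which were highest in 5iLA H7. By limma on log2(RPKM + 1), all 5 differed between 5iLA H7 and primed H1, with 4 higher and 1 lower, where 7.74% of 12116 tested genes were called higher and 76.8% lower. The median difference of the members was 2.74, beside -1.23 for all tested genes. On the rescaled values 30.8% of genes were called higher and 34.4% lower, with a median of -0.06, and the same directions held for the 5 members. ABHD12B and C4orf51 reached the required mean of 1 RPKM through the 5iLA H7 libraries alone, so their tested differences between 5iLA H7 and either other culture were in part set by that requirement.

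**Figure D1:**
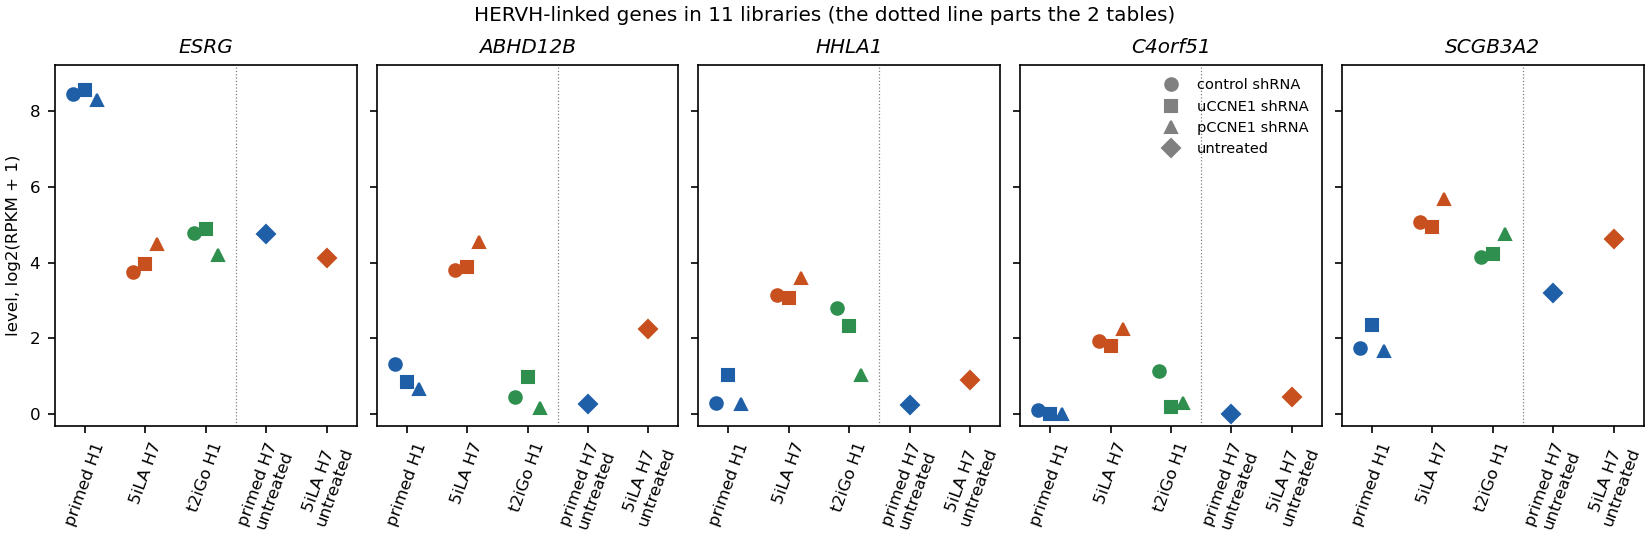
Level of each member, as log2(RPKM + 1), in the 11 libraries; each point is 1 library, colour is the culture, shape is the shRNA, and the dotted line parts the shRNA table from the untreated table. ESRG stands at 309 to 374 RPKM in primed H1 and at 28.5 RPKM or less elsewhere, while the other 4 genes are highest in 5iLA H7.

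ESRG, the non-coding RNA, was by far the most abundant member in primed H1. It stood at 346, 374 and 309 RPKM in primed H1 with the control, uCCNE1 and pCCNE1 shRNA, at 12.5, 14.7 and 21.4 RPKM in 5iLA H7 and at 26.3, 28.5 and 17.4 RPKM in t2iGo H1. The 3 primed H1 libraries were all far above the other 6, while 5iLA H7 and t2iGo H1 overlapped. In primed H1 it ranked 102 to 138 among 23287 genes, and in the other shRNA libraries 1076 to 2725. The log2 difference was -4.35 ± 0.25 (SE) in 5iLA H7 and -3.80 ± 0.25 in t2iGo H1 against primed H1 (limma, adjusted p = 5.43e-08 and 3.01e-07). In mean RPKM it was 21.2-fold lower in 5iLA H7 and 14.2-fold lower in t2iGo H1, and after rescaling 7.58-fold and 6.39-fold lower. For 5iLA H7 against t2iGo H1 the difference was -0.55 ± 0.25 (limma, adjusted p = 0.0855). Over the alternatives it was weakest with median-ratio scaling, at -0.09 (limma, adjusted p = 0.794). It was strongest without the pCCNE1 shRNA libraries, at -0.96 (limma, adjusted p = 0.0176), the 1 setting in which it was called.

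The untreated H7 pair, a separate table with 1 library a side, gave a smaller gap for ESRG. Its level was 25.8 RPKM in primed H7 and 16.2 RPKM in 5iLA H7, a log2 difference of -0.64, or -0.93 after rescaling. Primed H7 thus did not reach the level of primed H1, although levels set across the 2 tables are not strictly comparable. Line, shRNA infection, preparation and table all differ between these libraries and cannot be told apart, and in bulk RNA fewer cells of a type and less RNA per cell cannot be told apart either.

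ABHD12B, the predicted hydrolase, did not share the pattern of ESRG. Its level was 1.49, 0.815 and 0.600 RPKM in primed H1 (control, uCCNE1, pCCNE1), 13.1, 13.7 and 22.4 RPKM in 5iLA H7 and 0.364, 0.972 and 0.115 RPKM in t2iGo H1. The 5iLA H7 libraries were above all others, and primed H1 and t2iGo H1 overlapped. The log2 difference of 5iLA H7 was 3.13 ± 0.27 against primed H1 and 3.55 ± 0.27 against t2iGo H1 (limma, adjusted p = 8.88e-07 and 1.46e-06). For t2iGo H1 against primed H1 it was -0.42 ± 0.27 (95% interval -1.02 to 0.18, limma, adjusted p = 0.184), and 0.01 after rescaling. In untreated H7 cells it stood at 0.215 RPKM when primed and at 3.72 RPKM in 5iLA, a ratio of 17.3. The direction was thus the same within the H7 line, with 1 library a side. The primed value stands for 4.21 estimated reads, and after rescaling the ratio was 14.0.

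HHLA1 was intermediate in t2iGo H1. It was at 0.221, 1.06 and 0.199 RPKM in primed H1, at 7.87, 7.34 and 11.05 RPKM in 5iLA H7 and at 6.02, 3.996 and 1.07 RPKM in t2iGo H1. The 3 cultures did not overlap, but the lowest t2iGo H1 library, with pCCNE1 shRNA, lay only just above the highest primed H1 library, with uCCNE1 shRNA. The log2 difference was 2.74 ± 0.35 in 5iLA H7 and 1.53 ± 0.35 in t2iGo H1 against primed H1 (limma, adjusted p = 1.93e-05 and 0.00217). Between 5iLA H7 and t2iGo H1 it was 1.21 ± 0.35 (limma, adjusted p = 0.0133). Both of the t2iGo H1 calls rested on single shRNAs. Without the control libraries the t2iGo H1 against primed H1 difference was 1.03 (limma, adjusted p = 0.0673). Without the pCCNE1 libraries the 5iLA H7 against t2iGo H1 difference was 0.54 (limma, adjusted p = 0.102). In untreated H7 cells HHLA1 was at 0.193 RPKM (primed) and 0.886 RPKM (5iLA), lower than in any 5iLA H7 library with an shRNA, across tables normalised separately.

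C4orf51 was low outside 5iLA H7. It was at 0.0732 RPKM in primed H1 with the control shRNA and listed at 0 with both CCNE1 shRNAs, at 2.83, 2.47 and 3.76 RPKM in 5iLA H7, and at 1.19, 0.146 and 0.236 RPKM in t2iGo H1. The value of 0.0732 and the lower pair in t2iGo H1 stand for 1.28, 1.31 and 1.38 estimated reads, so about 1 read each, while the t2iGo H1 control value stands for 15.6 reads and the 5iLA H7 values for 25.9 to 46.3. The log2 difference of 5iLA H7 was 1.96 ± 0.23 against primed H1 and 1.45 ± 0.23 against t2iGo H1 (limma, adjusted p = 7.38e-06 and 2.59e-04), on a scale that understates low genes. For t2iGo H1 against primed H1 it was 0.51 ± 0.23 (limma, adjusted p = 0.0597), and 0.25 (limma, adjusted p = 0.287) without the control libraries, of which the t2iGo H1 one was high. The untreated table lists it at 0 in primed H7 and at 0.384 RPKM in 5iLA H7.

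SCGB3A2, the airway secretoglobin, was the most abundant member in 5iLA H7. Its level was 2.33, 4.13 and 2.18 RPKM in primed H1, 32.7, 29.7 and 50.1 RPKM in 5iLA H7 and 16.8, 17.6 and 26.2 RPKM in t2iGo H1. The cultures did not overlap, with 5iLA H7 highest and primed H1 lowest. The log2 difference against primed H1 was 3.31 ± 0.25 in 5iLA H7 and 2.45 ± 0.25 in t2iGo H1 (limma, adjusted p = 3.25e-07 and 4.51e-06), and 5iLA H7 exceeded t2iGo H1 by 0.85 ± 0.25 (limma, adjusted p = 0.0135). Without the control libraries this last difference was 0.82 (limma, adjusted p = 0.0959). In untreated H7 cells it was at 8.12 RPKM (primed) and 23.7 RPKM (5iLA). Of the 5 members, ABHD12B, HHLA1 and SCGB3A2 were at least 1.5 times higher in untreated 5iLA H7 than in untreated primed H7 on the log2(RPKM + 1) scale and ESRG as much lower, where 25.8% of 11015 genes were higher and 9.76% lower. HHLA1 and C4orf51 had means under 1 RPKM there and are not among those genes. After rescaling the log2 difference of HHLA1 was 0.57 in place of 0.66, short of that fold. Other airway genes were all but absent: the summed level of their list was at most 1.11 RPKM in any library, and SCGB1A1, the club cell secretoglobin, was listed at 0 in all 11.

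Between t2iGo H1 and primed H1, cells of the same line, 3 of the 5 members were called, SCGB3A2 and HHLA1 higher and ESRG lower, where limma called 8.77% of genes higher and 63% lower. The median difference of the members was 0.51, beside -0.82 for all tested genes, and after rescaling 38.5% of genes were called higher and 30.1% lower. Endoderm markers, of which 8 to 9 of 10 were at or above 1 RPKM in t2iGo H1 and 0 to 2 of 10 in the 6 remaining shRNA libraries, moved with this comparison, and their part in it was not tested. Between 5iLA H7 and t2iGo H1, ABHD12B, C4orf51, HHLA1 and SCGB3A2 were called higher and no member lower, where 14.9% of genes were called higher and 40.1% lower. For ABHD12B and C4orf51 the filter on low values, met through 5iLA H7, in part set this call.

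**Figure D2:**
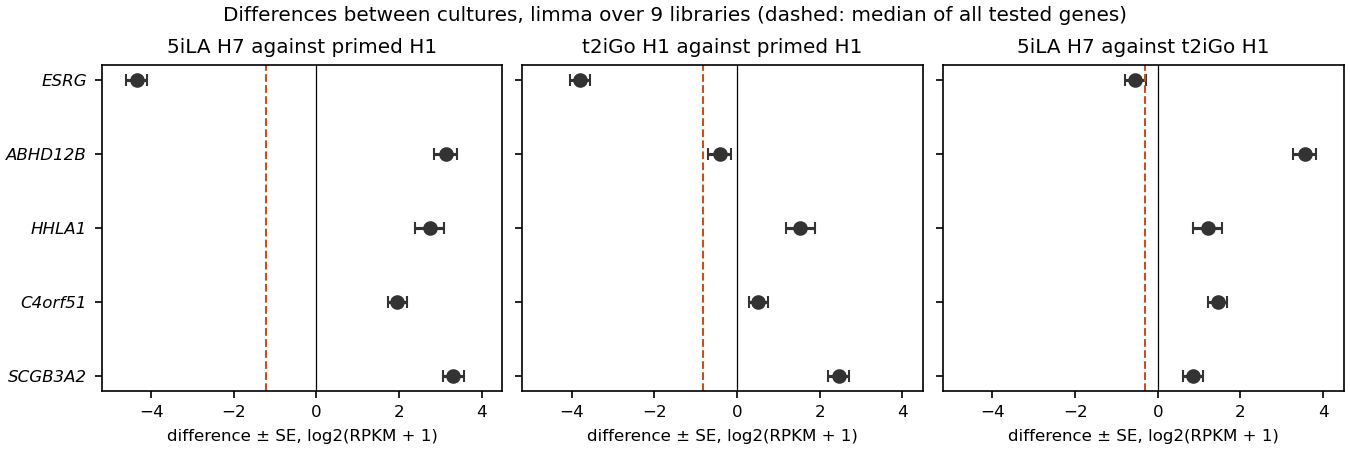
Difference between cultures for each member on the log2(RPKM + 1) scale, from limma over 9 libraries; points are estimates, bars are 1 SE and the dashed line is the median of all tested genes. ESRG lies at -4.35 and -3.80 against primed H1, while the other 4 members lie at 1.96 to 3.31 in 5iLA H7.

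Within single cultures the shRNA libraries could be set against their own control, with 1 library a side and no test. The 5iLA H7 cells with pCCNE1 shRNA had all 5 members above control, at ratios of 1.71 for ABHD12B and ESRG, 1.53 for SCGB3A2, 1.40 for HHLA1 and 1.33 for C4orf51. ABHD12B, ESRG and SCGB3A2 were at least 1.5 times higher on the log2(RPKM + 1) scale, as were 3.05% of tested genes, and the median gene was at -0.30. After rescaling all 5 passed that fold, with ratios of 1.84 to 2.37, as did 10.5% of genes, with the median gene at 0.02. The pCCNE1 library was also above the uCCNE1 library for all 5 members in this culture, at ratios of 1.45 to 1.68, and 2 members (ABHD12B and SCGB3A2) were at least 1.5 times higher on that scale, as were 4.74% of genes. With uCCNE1 shRNA, ESRG and ABHD12B were above control and the other 3 below, at ratios of 0.871 to 1.18, with 0 members at least 1.5 times higher, where 2.08% of genes were. The rescaled ratios were all above 1, from 1.28 to 1.73, so that direction depended on the scaling.

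The other cultures did not show the same order. In primed H1 all 5 members were lower with pCCNE1 shRNA than with control, by small amounts except in ABHD12B at 40.3% of control. ABHD12B was the 1 member at least 1.5 times lower (log2 difference -0.64), where 11.6% of genes were. The median tested gene was at 0.0077 there. After rescaling ABHD12B was at -0.45, short of that fold, and the value of C4orf51 in the control library is about 1 read. In t2iGo H1 HHLA1 stood at 17.7% of control with pCCNE1 shRNA, C4orf51 at 19.8%, ABHD12B at 31.6% and ESRG at 66.3%, while SCGB3A2 was at a ratio of 1.56. On the log2 scale HHLA1 and C4orf51 were at least 1.5 times lower there, as were 12.4% of tested genes, and SCGB3A2 was as much higher, as were 3.13%. With uCCNE1 shRNA in t2iGo H1, HHLA1 was at 66.4% of control and C4orf51 at 12.3%, while ABHD12B was at a ratio of 2.67. C4orf51 alone was at least 1.5 times lower on the log2 scale, where 2.54% of genes were. With uCCNE1 shRNA in primed H1, HHLA1 was at 4.78 times and SCGB3A2 at 1.77 times control, and both were at least 1.5 times higher on the log2 scale, where 3.31% of genes were. After rescaling both fell short of that fold, at log2 differences of 0.54 and 0.57. The t2iGo H1 pCCNE1 library was the shallowest, at an estimated 6.3 M reads, and 0.115 RPKM of ABHD12B there stands for 1.07 estimated reads.

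**Figure D3:**
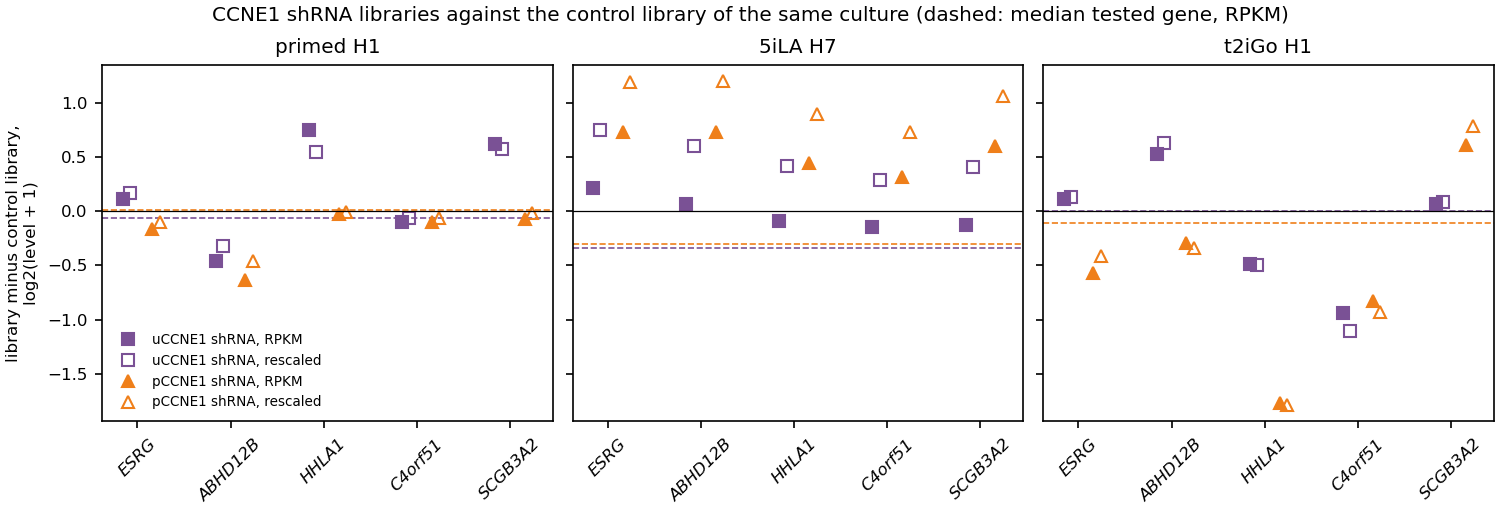
Each CCNE1 shRNA library minus the control library of the same culture on the log2 scale; filled symbols are RPKM, open symbols the values rescaled without small RNAs, and dashed lines the median tested gene. With pCCNE1 shRNA all 5 members are above control in 5iLA H7. In primed H1 all 5 are below it, but at only -0.16 to -0.03 in RPKM except for ABHD12B. HHLA1 is the lowest point in t2iGo H1.

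Averaged over the 3 cultures, no member passed for either shRNA, and neither did any other gene. By limma 0 of 12116 genes were called (0% higher and 0% lower) for pCCNE1 against control, 0 for uCCNE1 against control and 0 for pCCNE1 against uCCNE1, while 1792, 1236 and 495 genes had an unadjusted p under 0.05. For pCCNE1 the differences were 0.38 ± 0.25 for SCGB3A2, -0.0015 ± 0.25 for ESRG, -0.07 ± 0.27 for ABHD12B, -0.21 ± 0.23 for C4orf51 and -0.45 ± 0.35 for HHLA1 (limma, adjusted p = 0.502 to 0.998). The 95% interval for ESRG ran from -0.55 to 0.55 and that for HHLA1 from -1.23 to 0.33, so changes of these sizes lie within the error. For uCCNE1 the differences were between -0.39 (C4orf51) and 0.19 (SCGB3A2), with adjusted p from 0.566 to 0.962 by limma. The signs of the small values for ESRG and ABHD12B turned with the scaling.

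HHLA1 was followed further because its log2 level had the widest range of the 5 members among the t2iGo H1 libraries, a choice made after its values were seen. The nearest measured gene before it, OC90, is a phospholipase-like gene of the inner ear, and splicing from HHLA1 into OC90 has been described in teratocarcinoma cells. OC90 was at 0.0603, 0.114 and 0.0243 RPKM in primed H1, at 1.204, 1.22 and 3.52 RPKM in 5iLA H7 and at 1.68, 0.660 and 0.554 RPKM in t2iGo H1. It was thus lowest in primed H1, highest in the 5iLA H7 pCCNE1 library, and in t2iGo H1 highest with the control shRNA, as HHLA1 was. In the untreated 5iLA H7 library OC90 was at 0.0456 RPKM, where HHLA1 was at 0.886. KCNQ3, the neighbour on the other side, was at 0.363 to 0.494 RPKM in primed H1 and at most 0.194 RPKM in the other shRNA libraries. The gene most like HHLA1 over the 9 shRNA libraries was NODAL, the ligand that maintains pluripotency through SMAD2 and SMAD3 (Pearson r = 0.966 on log2(RPKM + 1)). NODAL stood at 1.45 to 1.48 RPKM in primed H1, at 29.9 to 36.4 RPKM in 5iLA H7 and at 19.0, 10.6 and 5.40 RPKM in t2iGo H1 with the control, uCCNE1 and pCCNE1 shRNA.

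**Figure D4:**
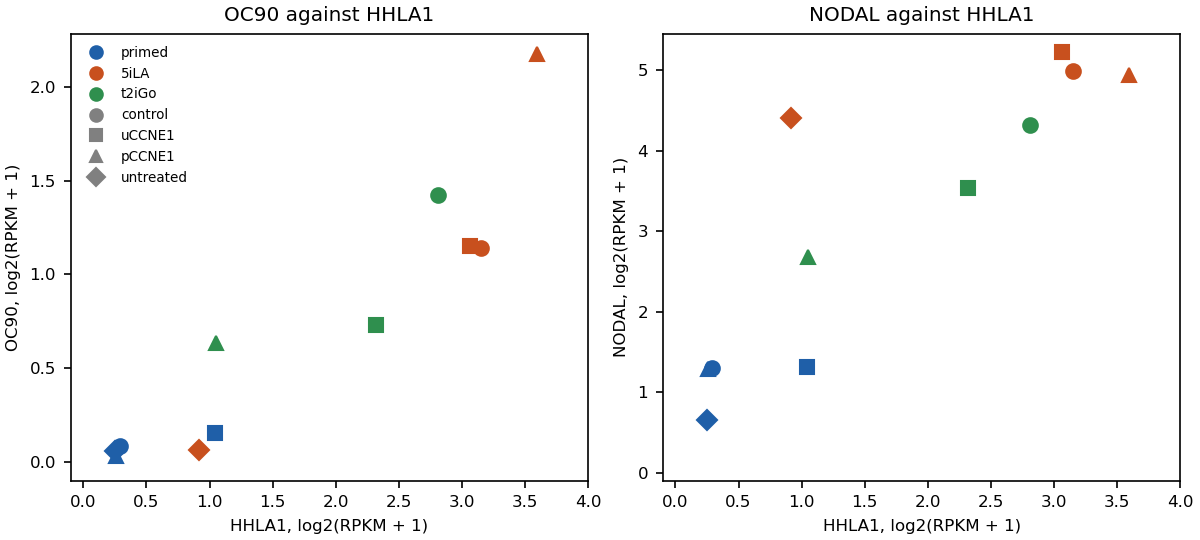
OC90 (left) and NODAL (right) against HHLA1, as log2(RPKM + 1), in the 11 libraries; colour is the culture and shape the shRNA. In t2iGo H1 all 3 genes are highest with the control shRNA and lowest with pCCNE1 shRNA, and the untreated 5iLA H7 library has NODAL at 20.2 RPKM with HHLA1 at 0.886 RPKM.

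For the other members, overlapping and nearest genes were compared in RPKM alone, and their order after rescaling was not examined. Pearson r of log2(RPKM + 1) over the 9 shRNA libraries ran from -0.856 (ZNF827 with C4orf51) to 0.539 (ACTR8 with ESRG). ESRG lies within CACNA2D3, a calcium channel subunit gene, which was at 0.296 to 1.83 RPKM in all 11 libraries. C4orf51 overlaps ZNF827, a zinc finger gene, which was at 3.43 to 3.91 RPKM in primed H1 and 0.797 to 1.70 RPKM in 5iLA H7. That order was opposite to C4orf51 in RPKM, where 76.8% of tested genes were called lower in 5iLA H7 than in primed H1. Whether counting used strand is not given in the sources used here, so overlapping genes may share reads. ABHD12B lies between NIN, at 3.49 to 6.67 RPKM in primed H1 and 5iLA H7, and PYGL, at 14.3 to 31.2 RPKM there. In t2iGo H1 NIN was at 11.2 to 14.1 RPKM and PYGL at 9.01 to 12.8 RPKM. Pearson r with ABHD12B was -0.391 for NIN and 0.354 for PYGL. SPINK1, the protease inhibitor gene beside SCGB3A2, was at 3.08, 21.9 and 14.8 RPKM in t2iGo H1 and at most 1.04 RPKM in the other shRNA libraries.

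Likeness over the 9 shRNA libraries, which fall into 3 cultures and share their depth and small RNA differences within a culture, parted the members in the same way. ESRG ran opposite to the other 4, with Pearson r of -0.471 with ABHD12B, -0.720 with C4orf51, -0.813 with HHLA1 and -0.956 with SCGB3A2. Such values were common. Among 12115 genes ordered from most to least like each of these 4, ESRG ranked 5733 for ABHD12B and 6832 for C4orf51. Its rank was 8530 for HHLA1 and 10953 for SCGB3A2, so many genes ran opposite as strongly. Among those 4, r was 0.595 to 0.894, with HHLA1 and C4orf51 the closest pair. The genes most like ESRG were EWSR1, HIRA, PSMC5 and ZFHX2 (r of 0.995 to 0.997). EWSR1, an RNA-binding protein gene, was at 110 to 131 RPKM in primed H1 and at 19.4 to 29.5 RPKM in the other shRNA libraries. ABHD12B was most like SCUBE2, BCRP3, EPPK1 and ZNF552 (0.990 to 0.995). C4orf51 was most like SNAR-A3 and SNAR-A14, short multi-copy RNAs whose values are uncertain, WNT3 and NLRP12 (0.975 to 0.981), and SCGB3A2 most like CDR1, HPGD, ZNF468 and TWIST1 (0.978 to 0.992). HPGD, which degrades prostaglandins, was at 0.135 to 0.407 RPKM in primed H1, 10.99 to 15.9 RPKM in 5iLA H7 and 4.79 to 7.90 RPKM in t2iGo H1. After NODAL, HHLA1 was most like SNORA80, HIST4H4 and PRDM1 (0.943 to 0.954).

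Other genes with HERVH-linked transcripts did not share a single direction with the members. RPL39L, a ribosomal protein gene, was at 44.4, 35.6 and 46.3 RPKM in primed H1, at 14.9, 3.77 and 8.76 RPKM in 5iLA H7 and at 3.54, 1.495 and 1.54 RPKM in t2iGo H1. HHLA3 was at 9.09 to 17.2 RPKM in primed H1 and at most 1.83 RPKM in the other shRNA libraries. Both fell in 5iLA H7 and in t2iGo H1 against primed H1, as ESRG did, by 2.25 and 3.81 for RPL39L and by 2.92 and 2.52 for HHLA3 on the log2 scale (limma, highest adjusted p = 7.18e-06). Most genes were called lower in these comparisons too, 76.8% and 63% of them, with medians of -1.23 and -0.82. After rescaling both genes were still called lower, by 0.91 and 2.80 for RPL39L and by 1.88 and 1.58 for HHLA3, where 34.4% and 30.1% of genes were called lower. HHLA2, of the same list, did not pass the filter on low values.

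The factors reported to activate HERVH also differed between the cultures. POU5F1, which encodes OCT4, was at 274 to 351 RPKM in primed H1, 44.2 to 84.6 RPKM in 5iLA H7 and 13.6 to 34.6 RPKM in t2iGo H1. It was thus highest where ESRG was highest. For POU5F1 5iLA H7 lay above t2iGo H1, whereas for ESRG these cultures overlapped. KLF4 was at 1.08 to 2.36 RPKM in primed H1, 14.0 to 20.2 RPKM in 5iLA H7 and 0.626 to 0.666 RPKM in t2iGo H1. TFCP2L1 was at 7.16 to 9.76 RPKM in 5iLA H7 and at most 0.291 RPKM in the primed H1 and t2iGo H1 libraries. Both thus had the order of ABHD12B, with 5iLA H7 alone high. That order is not particular to them. Both are on the naive list, of which 11 of 11 tested genes were called higher in 5iLA H7 than in either other culture. Whether these factors set the levels of the members was not tested. KLF4 rose by 2.80 ± 0.19 and TFCP2L1 by 2.93 ± 0.16 in 5iLA H7 against primed H1 (limma, adjusted p = 1.47e-07 and 4.40e-08). TFCP2L1 reached the required mean of 1 RPKM through 5iLA H7 alone, so its call there was in part set by that requirement. NANOG was at 18.7, 25.5 and 51.2 RPKM in primed H1, 130, 62.0 and 74.7 RPKM in 5iLA H7 and 22.9, 8.21 and 4.29 RPKM in t2iGo H1. SOX2 was at 101 to 151, 16.5 to 31.2 and 42.0 to 44.5 RPKM in the same order of cultures. Of the 6 activators listed, 3 rose and 3 fell in 5iLA H7 against primed H1 (median -0.43 beside -1.23 for all genes), where 7.74% of all genes rose and 76.8% fell. The counts were the same after rescaling, with a median of 0.96 beside -0.06, where 30.8% of all genes rose and 34.4% fell. In t2iGo H1 against primed H1, 0 rose and 4 fell (median -1.05 beside -0.82), where 8.77% of all genes rose and 63% fell. After rescaling 1 rose and 1 fell, where 38.5% of all genes rose and 30.1% fell.

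Genes that silence retroelements gave no single direction. Of 17 listed, 2 rose and 13 fell in 5iLA H7 against primed H1, and 1 rose and 9 fell in t2iGo H1 (medians of -1.28 and -0.59 beside -1.23 and -0.82 for all genes). These counts are near the shares of all genes, of which 76.8% fell in 5iLA H7 and 63% in t2iGo H1. After rescaling 6 rose and 6 fell in 5iLA H7, where 30.8% of all genes rose and 34.4% fell. In t2iGo H1 7 rose and 3 fell, where 38.5% of all genes rose and 30.1% fell. TRIM28, the corepressor of KRAB zinc finger proteins, was at 139 to 208 RPKM in primed H1, 28.7 to 56.6 RPKM in 5iLA H7 and 16.2 to 41.8 RPKM in t2iGo H1. DNMT3L, a cofactor of de novo DNA methylation and a naive marker, was at 77.8 to 98.0 RPKM in 5iLA H7 and at most 0.701 RPKM in the other shRNA libraries. ZNF534, a KRAB zinc finger gene, was at 8.25 to 13.2 RPKM in 5iLA H7 and at most 0.0514 RPKM in the others. DNMT3L and ZNF534 reached the required mean of 1 RPKM through 5iLA H7 alone, so their tested differences there were in part set by that requirement. With each CCNE1 shRNA, 0 of the 6 activators and 0 of the 17 silencers passed the test against control.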

How the data were processed

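Poly-A or total RNA selection is not given in the sources used here. Per the labels' protocols, an RNeasy Mini Kit served for extraction and Tru-Seq kits for the libraries. The deposited values are RPKM, computed by the authors per gene in 2 tables, which were treated as normalised separately. The submitters' processing notes name TopHat2 2.3.0, Cufflinks 1.2.1 and hg19, with roles and settings not given in the sources used here. Coordinates printed are from GRCh38 annotations and were not converted.

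Genes with a mean of at least 1 RPKM over the 9 shRNA libraries (12116 genes; 11015 in the untreated table) were analysed as log2(RPKM + 1), a scale that understates changes of low genes. R 4.3.3 and limma 3.58.1 fitted culture and shRNA over 9 libraries (4 residual degrees of freedom), with a trend and Benjamini-Hochberg adjustment at 0.05 over all tested genes. The fit was tested on simulated data with 200 genes changed. For a log2 change of 1 it recovered 50% of them for pCCNE1 against control and 52% for t2iGo H1 against primed H1. For a log2 change of 2 it recovered 96% in each. A true shRNA change of 1 on the log2 scale could thus be missed. Single pairs of libraries were compared at a fold of 1.5, with no test. Rescaled values set the sum without small RNAs equal in each table. Alternatives were a pseudocount of 0.1, no filter, quantile normalization, median-ratio scaling, equal sums without small RNAs, only the libraries compared, and leaving out each culture or shRNA. Depth was estimated from read steps of low values (45.4% to 51.8% lay within 0.1 of a whole read, so the estimate is rough), with GENCODE 29 transcript lengths matched for 94.1% of genes. Sequence likeness between members is not reported here.

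The members, the gene lists and the comparisons were chosen with earlier results of these data known. Genes named are the 5 members, for each the 4 genes with the highest Pearson r over 9 libraries, members of fixed lists that passed (at most 4 per list, with POU5F1, NANOG, SOX2, KLF4 and TFCP2L1 always), the nearest measured neighbours, and CCNE1. The list of fibroblast and feeder genes had 4 higher and 3 lower of 7 tested in t2iGo H1 against primed H1. The neural list had 1 and 1 of 2, the trophoblast list 2 and 1 of 3. The retroviral envelope list had 0 and 0 of 1, the primed list 1 and 9 of 13, and the naive list 4 and 1 of 11. In 5iLA H7 against primed H1 the naive list had 11 of 11 higher, where 7.74% of all genes were called higher. Naive markers such as DPPA3 and DPPA5 reached the required mean of 1 RPKM through 5iLA H7 alone. That requirement thus in part set the count in 5iLA H7.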

Additional observations from a re-analysis of the deposited data

Results flagged for a closer look

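ABHD12B moved in opposite directions with the CCNE1 shRNAs in 2 cultures. In primed H1 its log2(RPKM + 1) difference from the control library was -0.46 with uCCNE1 shRNA and -0.64 with pCCNE1 shRNA, and in 5iLA H7 it was 0.07 and 0.73. The mean difference in primed H1 minus that in 5iLA H7 was -0.95. Both shRNA libraries of a culture share 1 control library, and the difference between the cultures was not tested.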

How the results depend on the processing

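The fit had culture as a term, so shRNAs were compared within cultures; no further pairing was possible because the labels give no replicate numbers. The number of members called kept within 1.5 times its value under all alternatives: 5 under every one for 5iLA H7 against primed H1, 2 to 4 for t2iGo H1 against primed H1, 3 to 4 for 5iLA H7 against t2iGo H1, and 0 for each shRNA comparison. Of 150 values of single members in the culture comparisons, 140 kept direction and side of the threshold. ABHD12B in t2iGo H1 against primed H1 turned to 0.22 under quantile normalization and to 0.0104 with equal sums without small RNAs. C4orf51 there was called with a pseudocount of 0.1 (1.98), after quantile normalization (0.71) and without the pCCNE1 libraries (0.61), and HHLA1 between 5iLA H7 and t2iGo H1 was not called without a filter (limma, adjusted p = 0.0631, over a range of 0.0065 to 0.102). In the shRNA comparisons 19 of 150 values changed sign, all of them uncalled. For pCCNE1 against control, ESRG was 0.0038 with a pseudocount of 0.1, 0.13 after quantile normalization, 0.18 after median-ratio scaling, 0.23 with equal sums, 0.0801 without primed H1 and 0.28 without t2iGo H1. ABHD12B was 0.20, 0.14, 0.13, 0.22 and 0.0474 under the same settings from quantile normalization on. Without t2iGo H1, HHLA1 was 0.21 and C4orf51 0.11. For uCCNE1 against control, HHLA1 was -0.29 and SCGB3A2 -0.0321 without primed H1, and ABHD12B -0.19 without t2iGo H1. For pCCNE1 against uCCNE1, SCGB3A2 was -0.0723 without 5iLA H7, and ESRG 0.12 and ABHD12B 0.24 without t2iGo H1. The causes were not tested. Of 15 values for the untreated pair, 9 moved and none changed sign. Values near 1 estimated read, as for C4orf51 in 3 libraries, limit what can be said of low members.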
